A study of Canis lupus familiaris with 12 samples.

Results

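The 10 genes described here encode the small GTPase RhoA, kinases that raise the phosphorylation of the myosin regulatory light chain (ROCK1, ROCK2, MYLK, DAPK3, CDC42BPB and CIT), a targeting and a catalytic subunit of myosin phosphatase (PPP1R12A and PPP1CB), and the myosin chaperone UNC45A. They were chosen by name, as genes of the RhoA, ROCK and myosin phosphorylation pathway, with earlier results of these data known. Of these, 10 of 10 were found among the 13672 genes of the deposited table. RNASeq was done on untreated MDCKII cells, a dog kidney line of epithelial character. WT cells, cells KO for cingulin (CGN-KO), cells KO for paracingulin (CGNL1-KO) and cells KO for both (double-KO) were each sequenced as 3 libraries, 12 in all. The KO lines were made by CRISPR/Cas9 gene editing, and each KO genotype is 1 cell line, so that an effect of the KO and a difference between lines cannot be told apart. No source says that the 3 libraries of a genotype came from separate cultures, so the p-values below measure the spread between these libraries, which may be technical. Libraries are named by genotype and replicate number, except 1 double-KO library whose column carries no number and which is called unnumbered.

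Nonmuscle myosin II contracts actin filaments when its regulatory light chain is phosphorylated. Active RhoA binds and activates the ROCK kinases, which phosphorylate the light chain directly and also phosphorylate PPP1R12A, the subunit that brings myosin phosphatase to its substrate, so that the phosphatase is inhibited. In epithelial cells this pathway sets the tension of the actomyosin belt at the apical junctions, where cingulin and paracingulin are found. RNASeq measures the mRNA of these genes and neither the active form of RhoA nor the phosphorylation of myosin.

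Levels are given in counts per 1000000 reads (CPM) as deposited, which are not divided by transcript length, so levels are compared between libraries and not between genes. Fold changes are on the log2(CPM + 1) scale, from limma, and a gene was called at an adjusted p (Benjamini-Hochberg over the 12650 genes tested) below 0.05. The libraries held 16837532 to 30086076 reads. CGN was at 39.7 to 56.5 CPM in the CGN-KO and double-KO libraries and at 198 to 233 CPM in the others, and CGNL1 was at 1.11 to 3.02 CPM in the CGNL1-KO and double-KO libraries and at 5.04 to 12.3 CPM in the others, so the labels and these levels go together in 12 of 12 libraries. CGNL1 was also lower in CGN-KO (5.04 to 6.92 CPM) than in WT libraries (7.74 to 12.3 CPM), with a log2 fold change of -0.61 (adjusted p = 0.0201). The 7 epithelial markers summed to 7217 to 7364 CPM in WT, 7613 to 7686 CPM in CGN-KO, 7768 to 8003 CPM in CGNL1-KO and 7249 to 7387 CPM in double-KO libraries. Single markers went both ways against WT. In CGN-KO cells EPCAM (log2 fold change 0.40) and KRT19 (0.45) were called higher, and KRT18 (-0.35) and OCLN (-0.20) lower. In CGNL1-KO cells CDH1 (0.25), EPCAM (0.26) and KRT19 (0.36) were called higher. In double-KO cells EPCAM (0.33) was called higher and OCLN (-0.27) lower. Of 8 markers of fibroblasts and smooth muscle only VIM and ACTA2 were listed, with VIM at 2345 to 3539 CPM and ACTA2 at no more than 0.589 CPM. Of 4 endothelial markers only KDR was listed, at 1.12 to 1.77 CPM in WT, 0.758 to 0.938 CPM in CGN-KO, 1.92 to 2.41 CPM in CGNL1-KO and 0.0969 to 0.284 CPM in double-KO libraries. Of 4 leukocyte markers only CD14 was listed, at 5.92 to 11.5 CPM. The part of KDR, VIM or CD14 expression in the results below was not tested. In bulk RNA, fewer cells of a kind and less RNA per cell cannot be told apart.

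**Figure D1:**
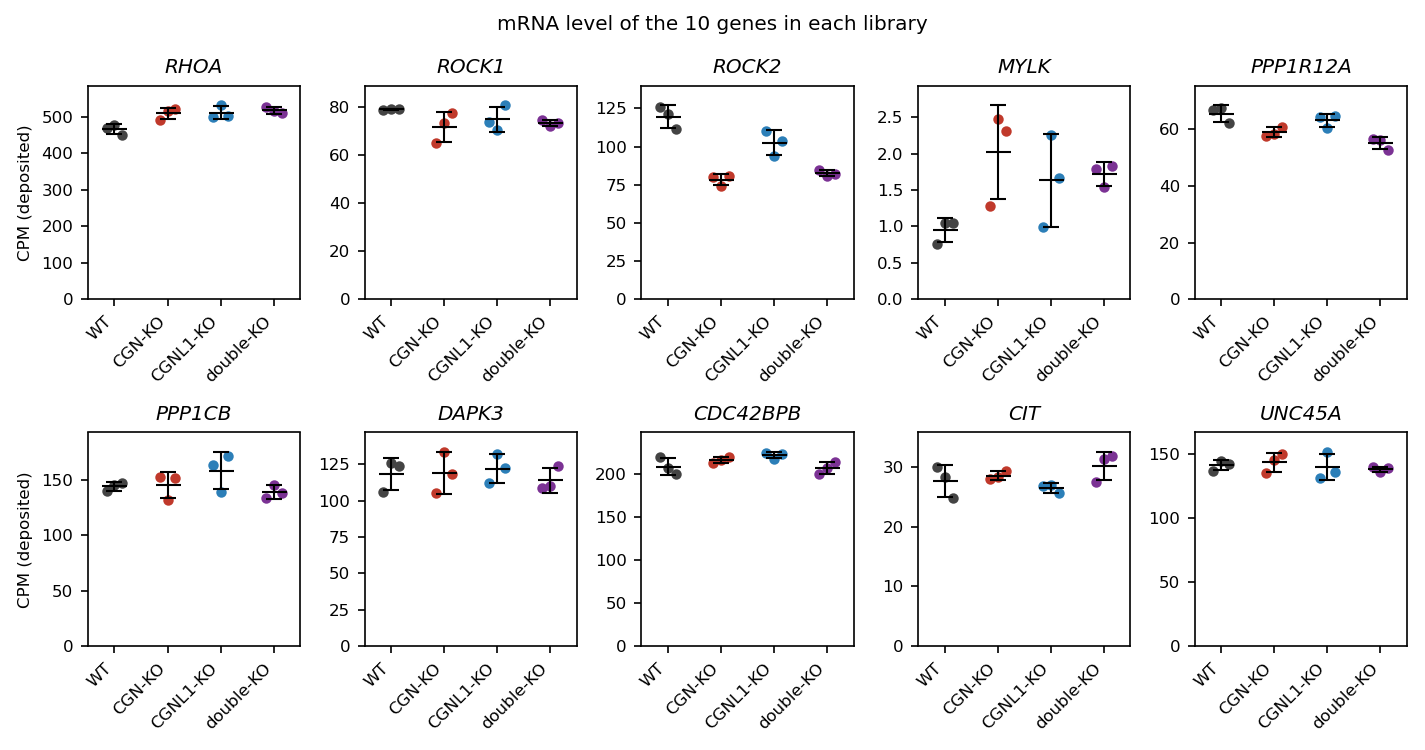
mRNA level (deposited CPM, each vertical axis starts at 0) of each of the 10 genes in the 12 libraries, with 1 point per library and the mean ± SD of the 3 libraries of a genotype in black. ROCK2 lies at 111 to 126 CPM in WT and 74.0 to 81.0 CPM in CGN-KO libraries, and MYLK lies at or under 2.47 CPM in every library.

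Against WT, 2 of the 10 genes were called in CGN-KO cells (MYLK higher and ROCK2 lower), where 19.0% of all genes tested were called. In CGNL1-KO cells 1 of 10 was called (ROCK2, lower), with 10.3% of all genes. In double-KO cells 3 of 10 were called (RHOA higher, ROCK2 and PPP1R12A lower), with 26.3% of all genes. The share of the group that was called thus lay near the share of all genes in each line, so that the number of calls is not a result about the group. The 3 comparisons share their WT libraries and are therefore not independent of each other. No gene of the group was called with a fold of at least 2 in CGN-KO, CGNL1-KO or double-KO cells, a rule that 1.31%, 0.617% and 1.41% of all genes met. On the same rule edgeR and DESeq2, run on the reads recovered from the table, called MYLK in CGN-KO cells and no other gene of the group. The median change of the 10 genes was 0.01 in the CGN-KO, 0.01 in the CGNL1-KO and -0.04 in the double-KO line on the log2 scale, and 5, 3 and 4 of the 10 genes had an unadjusted p below 0.05.

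RHOA, the GTPase that activates the ROCK kinases, rose in double-KO cells. Its level was 471, 477 and 450 CPM in WT replicates 1, 2 and 3, and 493, 515 and 521 CPM in CGN-KO replicates 1, 2 and 3. It was 499.8, 532 and 502 CPM in CGNL1-KO replicates 1, 2 and 3, and 529, 515 and 511 CPM in the unnumbered double-KO library and replicates 2 and 3. Each of the 9 KO values lay above each of the 3 WT values, and the values of the 3 KO lines overlapped. In double-KO cells the mean rose by 11.2%, a log2 fold change of 0.15 (SE 0.050, adjusted p = 0.0326). The log2 difference was 0.13 in CGN-KO (95% confidence interval 0.02 to 0.23, adjusted p = 0.0849) and 0.13 in CGNL1-KO cells (0.03 to 0.24, adjusted p = 0.118), neither past the threshold with limma, whereas DESeq2 on the recovered reads called both (adjusted p = 0.0393 and 0.0463). The call in double-KO cells was lost with a replicate block (adjusted p = 0.102). In that block the unnumbered double-KO library forms a level of its own, so only double-KO replicates 2 and 3 enter the estimate. The call was also lost without WT replicate 1 (0.058), WT replicate 3 (0.103), the unnumbered double-KO library (0.106), double-KO replicate 2 (0.0782) or double-KO replicate 3 (0.0644).

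ROCK2, a kinase that RhoA activates and that phosphorylates both the light chain and PPP1R12A, was lower in all 3 KO lines. Its level was 126, 121 and 111 CPM in WT replicates 1, 2 and 3 (119.5 ± 7.36 CPM, SD, n = 3). In CGN-KO replicates 1, 2 and 3 it was 80.0, 74.0 and 81.0 CPM (78.3 ± 3.78 CPM, SD, n = 3). In CGNL1-KO replicates 1, 2 and 3 it was 110.3, 94.1 and 103 CPM (103 ± 8.12 CPM, SD, n = 3). The double-KO libraries lay closest together, at 84.7 CPM in the unnumbered library, 80.9 CPM in replicate 2 and 82.3 CPM in replicate 3 (82.6 ± 1.89 CPM, SD, n = 3). No KO value reached the lowest WT value, and the CGN-KO and double-KO values all lay under the lowest CGNL1-KO value.

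The mean ROCK2 level fell by 34.5% in CGN-KO cells, a log2 fold change of -0.60 (SE 0.065, adjusted p = 5.97e-06). It fell by 30.9% in double-KO cells (-0.53 on the log2 scale, SE 0.065, adjusted p = 1.96e-05) and by 14.2% in CGNL1-KO cells (-0.22, SE 0.065, adjusted p = 0.0403). The calls in CGN-KO and double-KO cells held under 14 of 14 alternatives each. The call in CGNL1-KO cells was lost without WT replicate 1 (log2 fold change -0.18, adjusted p = 0.142), WT replicate 2 (-0.21, 0.132), CGNL1-KO replicate 2 (-0.16, 0.156) or CGNL1-KO replicate 3 (-0.23, 0.093), and when only the WT and CGNL1-KO libraries were fitted (adjusted p = 0.114).

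The KO lines also differed from each other in ROCK2. The level in CGN-KO cells was below that in CGNL1-KO cells by a log2 difference of -0.38 (SE 0.065, adjusted p = 0.00168), the only gene of the 10 called in that comparison, in which 5.19% of all genes were called (656 genes, or 1152 genes when replicate numbers entered as a block). The level in double-KO cells was below that in CGNL1-KO cells by -0.31 (SE 0.065, adjusted p = 0.00453). Between double-KO and CGN-KO cells the log2 difference was 0.08 (95% confidence interval -0.06 to 0.21, adjusted p = 0.532), and their values overlapped. The order of the levels was thus WT, CGNL1-KO, and then double-KO and CGN-KO, the last of which were not separated beyond their spread.

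ROCK1, the paralog of ROCK2 with the same upstream activator, was not called in any comparison. It was at 78.9, 79.1 and 79.4 CPM in WT replicates 1, 2 and 3, at 65.1 to 77.4 CPM in CGN-KO, at 70.5 to 80.7 CPM in CGNL1-KO and at 72.1 to 74.5 CPM in double-KO libraries. The CGN-KO and double-KO values lay under the WT values, whereas 1 CGNL1-KO value lay above them. The log2 difference from WT was -0.14 in CGN-KO (95% confidence interval -0.28 to -0.0016, adjusted p = 0.149), -0.08 in CGNL1-KO (adjusted p = 0.542) and -0.11 in double-KO cells (adjusted p = 0.246). The 20 nearest tested genes of ROCK1 had median log2 changes of -0.11, -0.07 and -0.14 for the same lines, and their part in the result was not tested.

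**Figure D2:**
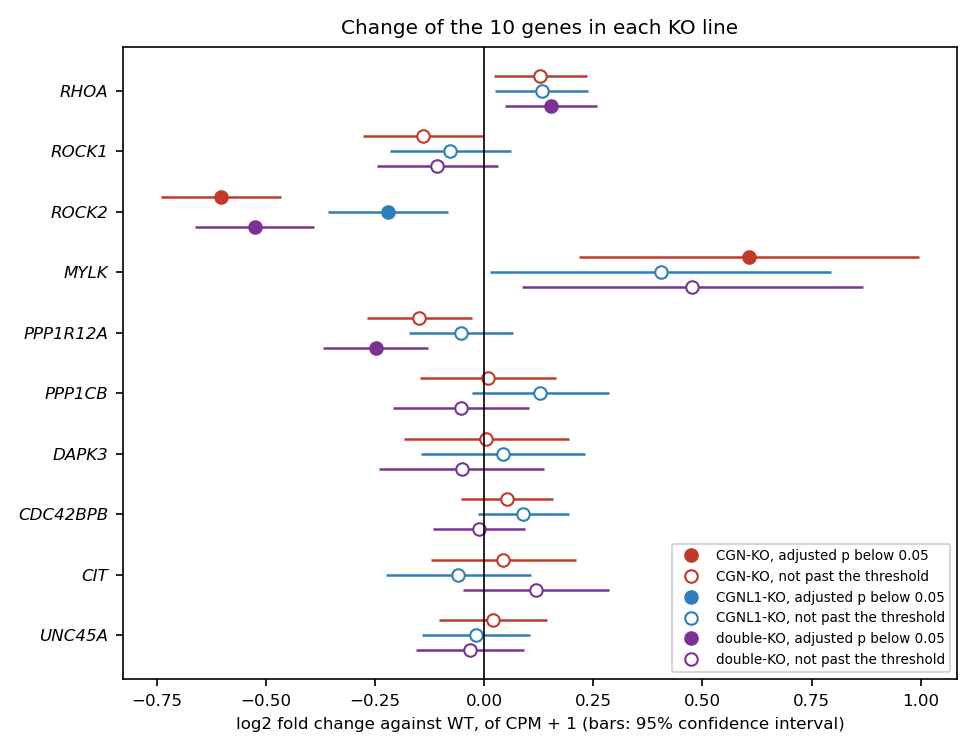
log2 fold change of CPM + 1 against WT (horizontal axis) of the 10 genes in CGN-KO, CGNL1-KO and double-KO cells, with bars for the 95% confidence interval and filled points for an adjusted p below 0.05. The ROCK2 intervals lie below 0 in all 3 lines, with -0.60, -0.22 and -0.53, while those of PPP1CB, DAPK3, CDC42BPB, CIT and UNC45A include 0 in every line.

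The ratio of ROCK2 to ROCK1 within a library does not depend on how that library was scaled. It was 1.59, 1.54 and 1.40 in WT replicates 1, 2 and 3, and 1.23, 1.01 and 1.05 in CGN-KO replicates 1, 2 and 3. In CGNL1-KO replicates 1, 2 and 3 it was 1.49, 1.34 and 1.28, and in the unnumbered double-KO library and replicates 2 and 3 it was 1.14, 1.12 and 1.12. All CGN-KO and double-KO ratios lay under all WT and CGNL1-KO ratios, while WT and CGNL1-KO overlapped. The ratio differed among the 4 genotypes in an exact permutation test over 369600 assignments of the 12 libraries (p = 0.00253, adjusted over 3 ratios p = 0.0076, one-sided in F). These ratios are of CPM, so they compare libraries and do not say which of the kinases has more transcripts.

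Genes next to ROCK2 were called in both directions in CGN-KO and double-KO cells. Over its 20 nearest tested genes in the gene order of the RefSeq assembly UU_Cfam_GSD_1.0, the median log2 change was 0.05 in the CGN-KO, -0.01 in the CGNL1-KO and 0.02 in the double-KO line, and the 388 tested genes of its chromosome had medians of -0.02, 0.01 and -0.07. PPP1CB, which lies on the same chromosome in that assembly, had log2 differences of 0.01, 0.13 and -0.05 and was not called. Of the 20 nearest genes, 5 were called higher and 6 lower in CGN-KO, 2 higher in CGNL1-KO, and 6 higher and 1 lower in double-KO cells, against 19.0%, 10.3% and 26.3% of all genes called, and their part in the ROCK2 result was not tested.

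MYLK, the calcium- and calmodulin-dependent myosin light chain kinase, was measured with few reads. Its level was 0.766, 1.05 and 1.05 CPM in WT replicates 1, 2 and 3, and 1.29, 2.47 and 2.30 CPM in CGN-KO replicates 1, 2 and 3. It was 0.987, 2.26 and 1.66 CPM in CGNL1-KO replicates 1, 2 and 3, and 1.79, 1.54 and 1.83 CPM in the unnumbered double-KO library and replicates 2 and 3. These values rest on 13 to 50 reads per library. The CGN-KO and double-KO values all lay above the WT values, whereas the CGNL1-KO values overlapped with WT.

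In CGN-KO cells the mean MYLK level was 2.11 times that of WT, a log2 fold change of 0.61 on the CPM + 1 scale, which understates the change of so low a gene (SE 0.184, adjusted p = 0.0293). The log2 difference was 0.40 in CGNL1-KO (95% confidence interval 0.01 to 0.79, adjusted p = 0.203) and 0.48 in double-KO cells (0.09 to 0.87, adjusted p = 0.0672). The call in CGN-KO cells was lost without WT replicate 1 (adjusted p = 0.0932), WT replicate 2 (0.0599), WT replicate 3 (0.0543), CGN-KO replicate 2 (0.121) or CGN-KO replicate 3 (0.105). Calls were gained in double-KO cells when only WT and double-KO libraries were fitted (0.0145) and in CGNL1-KO cells without CGNL1-KO replicate 1 (0.0417). The WT mean lay under the 1 CPM on which genes were filtered, and 10 of 12 libraries lay above it.

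The other 3 kinases were not called in any comparison without a replicate block. DAPK3, a calcium-independent kinase of the light chain also known as ZIP kinase, was at 106 to 126 CPM in WT, 105 to 134 CPM in CGN-KO, 112 to 132 CPM in CGNL1-KO and 109 to 124 CPM in double-KO libraries, and all groups overlapped. CDC42BPB, the MRCK kinase beta that acts downstream of Cdc42, was at 199.8 to 219.6 CPM in WT, 213 to 221 CPM in CGN-KO, 218 to 225 CPM in CGNL1-KO and 200.3 to 215 CPM in double-KO libraries. CIT, citron kinase, which acts at the cleavage furrow in cell division, was at 24.8 to 30.1 CPM in WT, 28.0 to 29.5 CPM in CGN-KO, 25.7 to 27.1 CPM in CGNL1-KO and 27.5 to 31.9 CPM in double-KO libraries. For these 3 genes the 95% confidence intervals of the log2 difference from WT reached from -0.24 to 0.29 over the 3 lines. The double-KO and CGNL1-KO values of CIT did not overlap (log2 difference 0.18, adjusted p = 0.151), and neither did those of CDC42BPB (-0.10, adjusted p = 0.2). With the block, to which the unnumbered double-KO library adds nothing, the CIT difference was 0.26 (adjusted p = 0.0395).

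PPP1R12A, the MYPT1 subunit that targets the phosphatase to myosin, was lower in double-KO cells. Its level was 66.6, 67.6 and 62.2 CPM in WT replicates 1, 2 and 3, and 56.3, 56.0 and 52.5 CPM in the unnumbered double-KO library and replicates 2 and 3. In CGN-KO replicates 1, 2 and 3 it was 57.7, 58.3 and 60.9 CPM, and in CGNL1-KO replicates 1, 2 and 3 it was 64.3, 60.3 and 64.5 CPM. The double-KO values lay under those of all other groups and the CGN-KO values under WT, while CGNL1-KO overlapped with both WT and CGN-KO. The mean fell by 16.1% in double-KO cells, a log2 fold change of -0.25 (SE 0.057, adjusted p = 0.00394), and this call held under 14 of 14 alternatives. The log2 difference from WT was -0.15 in CGN-KO (95% confidence interval -0.27 to -0.03, adjusted p = 0.0801) and -0.05 in CGNL1-KO cells (-0.17 to 0.07, adjusted p = 0.651).

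Double-KO cells also had less PPP1R12A mRNA than CGNL1-KO cells (log2 difference -0.20, SE 0.057, adjusted p = 0.0284). With ROCK2, these were the 2 genes of 10 called between double-KO and CGNL1-KO cells, where 14.4% of all genes were called. This PPP1R12A call was lost with library totals in place of the scaled library sizes (adjusted p = 0.0643), with only these 2 genotypes fitted (0.0521), and without CGNL1-KO replicate 1 (0.0678), CGNL1-KO replicate 3 (0.115), the unnumbered double-KO library (0.0537), double-KO replicate 2 (0.0613) or double-KO replicate 3 (0.13). Between double-KO and CGN-KO cells the PPP1R12A values did not overlap, but the log2 difference of -0.10 (95% confidence interval -0.22 to 0.02) did not pass the threshold (adjusted p = 0.325). The median change of the 20 nearest tested genes to PPP1R12A was -0.17, -0.11 and -0.10 on the log2 scale in CGN-KO, CGNL1-KO and double-KO cells, in the same direction as PPP1R12A, and their part in the result was not tested.

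PPP1CB, the catalytic subunit that pairs with PPP1R12A, was not called in any comparison over all libraries, and was called between double-KO and CGNL1-KO cells without CGNL1-KO replicate 2. It was at 139.6 to 147 CPM in WT, 132 to 152 CPM in CGN-KO, 139 to 172 CPM in CGNL1-KO and 133 to 145 CPM in double-KO libraries. All groups overlapped with WT, and the log2 difference from WT was 0.01 in CGN-KO, 0.13 in CGNL1-KO (95% confidence interval -0.03 to 0.29) and -0.05 in double-KO cells. The ratio of PPP1CB to PPP1R12A within a library was 2.10 to 2.37 in WT, 2.27 to 2.64 in CGN-KO, 2.31 to 2.66 in CGNL1-KO and 2.37 to 2.63 in double-KO libraries. It did not pass the threshold among the 4 genotypes in the exact permutation test (p = 0.134, adjusted p = 0.134). The ratio of MYLK to PPP1R12A, a kinase and a phosphatase subunit that act on the same light chain, had means of 0.0146 in WT, 0.0342 in the CGN-KO, 0.0262 in the CGNL1-KO and 0.0314 in the double-KO line. The CGN-KO and double-KO ratios all lay above the WT ratios, and the CGNL1-KO ratios overlapped with WT. Within each of the 3 replicate numbers the order was CGN-KO, CGNL1-KO and WT from high to low (0.0223, 0.0153 and 0.0115 in replicate 1, 0.0424, 0.0374 and 0.0155 in replicate 2, and 0.0378, 0.0257 and 0.0169 in replicate 3), an order that the permutation, which did not keep numbers together, leaves unused and for which the numbers were not shown to pair the WT libraries. The exact permutation p among the 4 genotypes was 0.0552 (adjusted p = 0.0828), and the value in each library rests on the few MYLK reads.

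**Figure D3:**
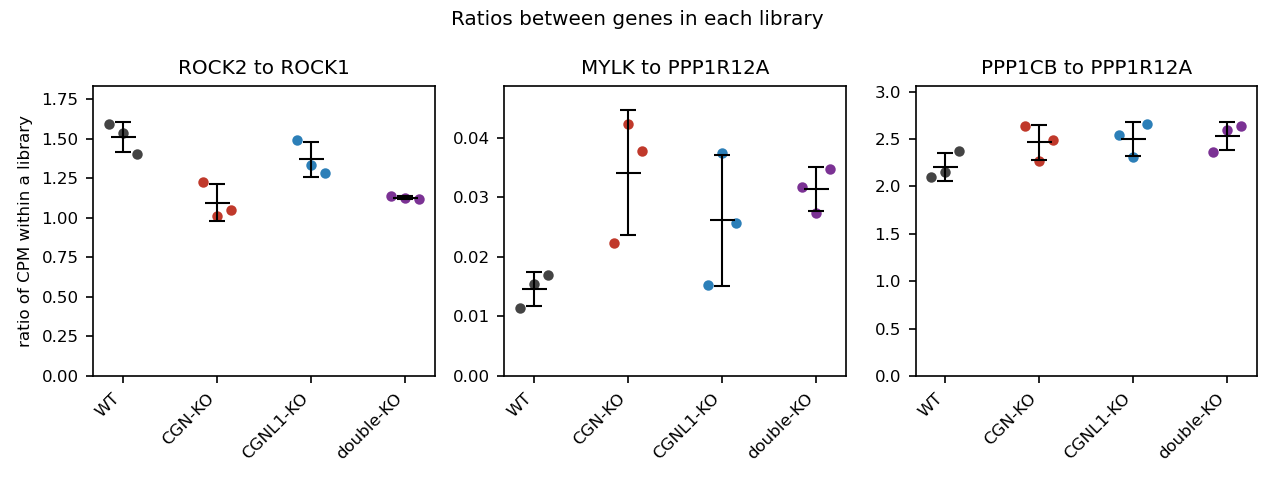
Ratio of the CPM of a pair of genes within each library (vertical axes start at 0), with 1 point per library and the mean ± SD of 3 libraries in black. For ROCK2 to ROCK1 the CGN-KO and double-KO libraries, at 1.01 to 1.23, lie under the WT and CGNL1-KO libraries, at 1.28 to 1.59, while PPP1CB to PPP1R12A lies at 2.10 to 2.66 with overlapping groups.

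UNC45A, a chaperone that folds and assembles the myosin motor, was at 137 to 145 CPM in WT, 135 to 149.7 CPM in CGN-KO, 131 to 151 CPM in CGNL1-KO and 136 to 139 CPM in double-KO libraries. The groups overlapped. The log2 difference from WT was 0.02 in the CGN-KO, -0.02 in the CGNL1-KO and -0.03 in the double-KO line, and the 95% confidence intervals reached from -0.16 to 0.14 over the 3 lines.

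Over the 4 genotypes together, limma's F test called ROCK2 (adjusted p = 9.23e-06, rank 280 of 12650 genes) and PPP1R12A (adjusted p = 0.0129), 2 of 10 genes, where 29.9% of all genes were called. PPP1R12A was no longer called without double-KO replicate 3 (adjusted p = 0.0586). MYLK (adjusted p = 0.0743) and RHOA (adjusted p = 0.0813) did not pass the threshold, and without CGNL1-KO replicate 2 MYLK (0.0409) and PPP1CB (0.0262) did. RHOA passed with DESeq2 (0.0204). MYLK also passed with a replicate block (0.0145), without CGN-KO replicate 1 (0.0157) and without CGNL1-KO replicate 1 (0.0188). Between double-KO and CGN-KO cells limma called 0 of 10 genes, with 0 at an unadjusted p below 0.05 and 0 called by edgeR or DESeq2, where 8.84% of all genes were called. The log2 differences in that comparison reached from -0.13 (MYLK) to 0.08 (ROCK2).

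Other genes of the pathway were read from lists by role. The lists were chosen with earlier results of these data known, so a count above the share of all genes is not a test of a list. Over all genes tested the median log2 change was 0.00 in each line, and the share of genes called was 19.0% for the CGN-KO, 10.3% for the CGNL1-KO and 26.3% for the double-KO line, against which the counts of each list are to be read.

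Among genes that act on myosin phosphatase, PPP1R14A, which encodes the phosphatase inhibitor CPI-17, rose in all 3 lines. Its level was 1.77 to 2.25 CPM in WT, 5.14 to 6.36 CPM in CGN-KO, 3.64 to 4.29 CPM in CGNL1-KO and 5.74 to 7.19 CPM in double-KO libraries. The groups of KO libraries did not overlap with WT, and the log2 fold changes were 1.16 (adjusted p = 3.29e-06), 0.74 (0.000615) and 1.33 (6.68e-07). PPP1R14C, of the same inhibitor family, fell from 16.9 to 20.1 CPM in WT to 6.62 to 8.80 CPM in CGN-KO (-1.19, adjusted p = 8.54e-06) and 9.86 to 12.6 CPM in double-KO libraries (-0.64, adjusted p = 0.00199). NUAK2, a kinase that acts on PPP1R12A, rose in CGNL1-KO (0.49, adjusted p = 0.0225) and double-KO cells (0.49, adjusted p = 0.0108). Of the 10 tested genes of this list, 1 rose and 1 fell in CGN-KO, 2 rose in CGNL1-KO, and 5 rose and 2 fell in double-KO cells, with median log2 changes of 0.01, 0.01 and 0.09. The 2 of 10 called in CGN-KO cells lay near the 19.0% of all genes, and the 7 of 10 called in double-KO cells stood beside 26.3%. The other PPP1R12 and PPP1C genes of the list went both ways in double-KO cells. PPP1R12C (log2 fold change 0.33, adjusted p = 0.00142) and PPP1CA (0.29, adjusted p = 0.000446) rose. PPP1CC fell (-0.22, adjusted p = 0.00616), and PPP1R12B was not called (-0.12, adjusted p = 0.374).

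Among the other kinases and calmodulins that act on the light chain, 2 of 11 tested genes rose in the CGN-KO, 1 in the CGNL1-KO and 4 in the double-KO line, with median log2 changes of 0.06, 0.08 and 0.16. The counts in CGN-KO and CGNL1-KO cells lay near the 19.0% and 10.3% of all genes called, so they are not a result about the list, and the count in double-KO cells stood beside 26.3%. CALM3, 1 of the 3 calmodulin genes, rose in each line (log2 fold change 0.22, 0.25 and 0.54 in CGN-KO, CGNL1-KO and double-KO cells, adjusted p = 0.0114, 0.00778 and 3.2e-06). CDC42BPA, the MRCK kinase alpha and paralog of CDC42BPB, rose from 53.6 to 54.4 CPM in WT to 66.7 to 70.4 CPM in CGN-KO (0.34, adjusted p = 0.000252) and 65.8 to 69.4 CPM in double-KO libraries (0.32, adjusted p = 0.000298). STK17A, a kinase related to DAPK3, rose in double-KO cells (0.56, adjusted p = 0.00266).

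RhoA is switched on by exchange factors (GEFs) and off by GTPase-activating proteins (GAPs), and GDIs hold it in the cytosol. Of 12 GEFs tested, 1 rose in CGN-KO (ARHGEF17, 0.19, adjusted p = 0.0423), 2 fell in CGNL1-KO (NET1, -0.26, adjusted p = 0.0216, and ARHGEF11, -0.25, adjusted p = 0.0428) and 1 fell in double-KO cells (ARHGEF11, -0.24, adjusted p = 0.0239), with median log2 changes of 0.00, -0.05 and -0.02. Over all genes 19.0%, 10.3% and 26.3% were called in these lines, and counts of 1 or 2 of 12 are too few for a result about GEFs. Of 11 GAPs and GDIs tested, 3 rose in the CGN-KO, 1 in the CGNL1-KO and 6 in the double-KO line, with medians of 0.06, 0.07 and 0.18. The 6 of 11 called in double-KO cells stood beside 26.3% of all genes, and the 3 and 1 called in CGN-KO and CGNL1-KO cells beside 19.0% and 10.3%. ARHGAP1 rose in each line (0.17, 0.20 and 0.33, adjusted p = 0.0233, 0.0142 and 0.000108). ARHGAP18 rose in CGN-KO (0.31, adjusted p = 0.00137) and double-KO cells (0.38, adjusted p = 0.000142), ARHGAP35 in double-KO cells (0.29, adjusted p = 0.000546), and STARD8, at 1.44 to 1.65 CPM in WT libraries, in CGN-KO cells (0.46, adjusted p = 0.0216).

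Downstream of RhoA and ROCK, 1 of 21 other effectors rose and 1 fell in CGN-KO, 1 rose and 2 fell in CGNL1-KO, and 3 rose and 2 fell in double-KO cells, with median log2 changes of 0.03, -0.04 and 0.04. The 2 of 21 called in CGN-KO cells lay below the 19.0% of all genes, and the 3 and 5 called in CGNL1-KO and double-KO cells stood beside 10.3% and 26.3%. RTKN, the RhoA-binding protein rhotekin, rose in CGN-KO (0.25, adjusted p = 0.0343) and fell in CGNL1-KO cells (-0.51, adjusted p = 0.00048). DIAPH3, a formin, fell in CGN-KO (-0.22, adjusted p = 0.0099) and CGNL1-KO cells (-0.19, adjusted p = 0.0407). CFL1, the actin-severing protein cofilin, rose in double-KO cells (0.40, adjusted p = 7.96e-05), SSH1, a cofilin phosphatase, rose in CGNL1-KO (0.18, adjusted p = 0.0461) and double-KO cells (0.26, adjusted p = 0.00243), and LIMK2, a cofilin kinase that ROCK activates, fell in double-KO cells (-0.23, adjusted p = 0.0355).

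MYL9, a myosin regulatory light chain and thus a substrate of these kinases, rose in all 3 lines. It was at 9.88 to 13.1 CPM in WT, 22.1 to 25.5 CPM in CGN-KO, 19.97 to 23.97 CPM in CGNL1-KO and 36.6 to 39.2 CPM in double-KO libraries. All KO values lay above WT, with log2 fold changes of 1.04 (adjusted p = 1.45e-06), 0.90 (adjusted p = 1.32e-05) and 1.67 (adjusted p = 6.28e-09). MYH14, the heavy chain of nonmuscle myosin IIC, rose by 0.61, 0.39 and 0.46 in CGN-KO, CGNL1-KO and double-KO cells (adjusted p = 0.000418, 0.0201 and 0.00306). These are mRNA levels. By immunoblot the paper reports similar protein levels of this heavy chain and of total myosin light chains in WT and KO MDCK cells. The 2 of 6 listed myosin II chains called in each line stood beside 19.0%, 10.3% and 26.3% of all genes. The other 4 were not called in any of these lines, and the median over the 6 was 0.07, 0.10 and 0.14. Among these 4, MYL12B, also a regulatory light chain, was at 412 to 455 CPM over the 12 libraries. Its log2 changes were 0.035, 0.12 and 0.06 (adjusted p = 0.658, 0.152 and 0.423). The 3 other myosin chaperone genes listed did not pass the test in any line, and their log2 changes reached from -0.08 to 0.21.

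Since CIT acts in cell division, 12 cell division genes were read beside it. AURKA, a mitotic kinase, rose in each line (0.27, 0.26 and 0.30, adjusted p = 0.00429, 0.01 and 0.00138), and AURKB (0.32, adjusted p = 0.00224) and TOP2A (0.22, adjusted p = 0.0197) rose in double-KO cells. The other 9 were not called in any line, with median log2 changes over the 12 of -0.03, -0.06 and 0.10. The 1, 1 and 3 of 12 called in CGN-KO, CGNL1-KO and double-KO cells lay near or below the 19.0%, 10.3% and 26.3% of all genes. These counts are thus not a result about cell division.

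**Figure D4:**
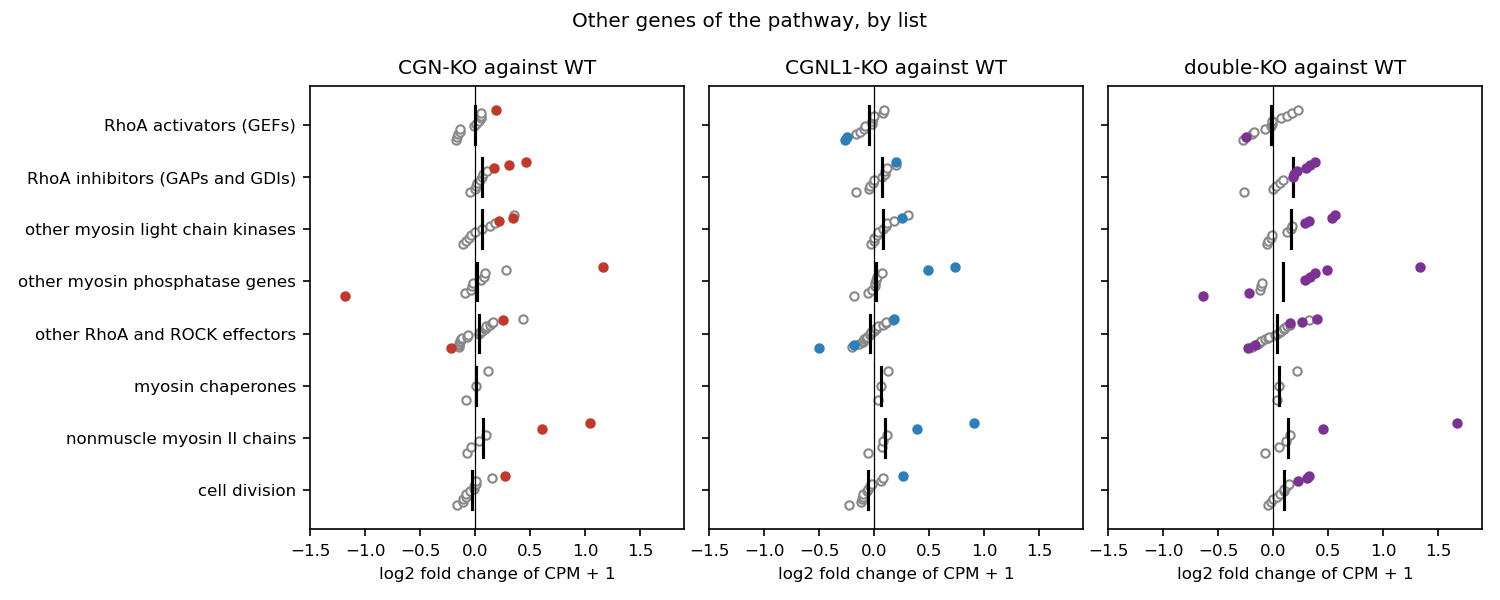
log2 fold change of CPM + 1 against WT (horizontal axis) of the other pathway genes, by list, in CGN-KO, CGNL1-KO and double-KO cells, with 1 point per gene, filled where the adjusted p was below 0.05, and a black bar at the median of the list. PPP1R14A and MYL9 lie farthest to the right, at 1.33 and 1.67 in double-KO cells, and PPP1R14C farthest to the left, at -1.19 in CGN-KO cells.

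The genes whose log2(CPM + 1) over the 12 libraries was most like that of ROCK2 were LRRK2 (Pearson r = 0.982), PPM1K (0.979) and ANO4 (0.973). LRRK2, a large protein kinase, had mean levels of 10.6 CPM in WT, 4.32 CPM in CGN-KO, 8.06 CPM in CGNL1-KO and 5.44 CPM in double-KO cells. ANO4, of the anoctamin family of membrane proteins, had means of 63.7, 36.5, 52.4 and 39.0 CPM in the same order, and PPM1K, a mitochondrial phosphatase, had means of 70.0, 52.6, 62.2 and 52.7 CPM. For PPP1R12A they were YWHAE (0.961), CD109 (0.953) and DIP2B (0.949), and CD109, a surface protein, had means of 97.8 CPM in WT, 78.6 CPM in CGN-KO, 90.8 CPM in CGNL1-KO and 70.8 CPM in double-KO cells. These r are given as descriptions, since each is the highest among all genes tested, over libraries that share genotype.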

How the data were processed

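Per the paper's methods and the submitters' processing notes, the authors made stranded mRNA libraries, aligned single reads with STAR 2.7.0f to CanFam3.1, counted them per gene with HTSeq 0.9.1, and normalized and filtered the counts with edgeR. The annotation release and strand setting are not given in the sources used here. The authors deposited 1 table of CPM for 13672 genes, treated here as a signal since column sums differ from 1000000; 16 names have the form of a date and were left as they are. Deposited values were whole multiples of what 1 read is worth (100% of values within 0.1 read), so reads were recovered, 16837532 to 30086076 per library. No transcript lengths or sequences were used here, and gene order came from RefSeq (UU_Cfam_GSD_1.0), which placed 11748 of 12650 genes by symbol.

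Genes above 1 CPM in at least 3 libraries (12650) were tested with limma 3.58.1 in R 4.3.3 (lmFit and eBayes with trend) on log2(CPM + 1), with the 12 libraries fitted together without a replicate block, with Benjamini-Hochberg adjustment at 0.05 and separately with a fold of at least 2. The design assumed CPM, which changed no test. Ratios were compared by exact permutation of the 12 libraries. On recovered reads edgeR 4.0.16 (quasi-likelihood) called 2429, 1264 and 3327 genes against WT in CGN-KO, CGNL1-KO and double-KO cells, where limma called 2408, 1302 and 3333, and DESeq2 1.42.0 was also run. The other alternatives were no filter, a pseudocount of 0.5 or 5 CPM, library totals, a replicate block, only the genotypes compared, and each library left out. The replicate block gave the unnumbered double-KO library a level of its own, so that library carries no weight there. Deviations from the group means correlated positively in 3 of 3 pairs of CGN-KO and CGNL1-KO libraries with the same number (0.179 to 0.632). With these 2 lines, WT replicates 1 and 2 correlated at 0.318 to 0.373, and WT replicate 3 at -0.0822 and 0.011. Double-KO replicates 2 and 3 correlated with them at -0.235 to -0.123, and with WT at -0.152 and 0.0859. Libraries with different numbers were not compared, so a pairing by number was not tested. The labels do not say what a number marks. The fits were tested on simulated data with folds of at least 2 in genes over 5 CPM, in double-KO libraries only. Smaller changes, and changes at levels as low as that of MYLK, were not simulated. The genes and lists were chosen with earlier results of these data known. Named beside the 10 genes and both targeted genes are, per list and KO line, up to 3 called genes with the largest change whose KO and WT values do not overlap, and the 3 genes most correlated with ROCK2 and PPP1R12A. MYL12B and the other PPP1R12 and PPP1C genes are named outside this rule. The result of 1 gene list is not reported here. Plots were drawn with matplotlib 3.10.9.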

Additional observations from a re-analysis of the deposited data

Results flagged for a closer look

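ROCK2 and PPP1R12A differed between KO lines in direct tests. For ROCK2 the log2 difference was -0.38 between CGN-KO and CGNL1-KO cells (adjusted p = 0.00168) and -0.31 between double-KO and CGNL1-KO cells (adjusted p = 0.00453), in each case with all 3 values of the first line under all 3 of the second, and both calls held under 14 of 14 alternatives. For PPP1R12A it was -0.20 between double-KO and CGNL1-KO cells (adjusted p = 0.0284), also with all 3 values under all 3, and this call held under 7 of 14 alternatives. Each line is a single clone, so genotype and clone cannot be told apart.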

How the results depend on the processing

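ROCK2 kept its direction and its call in CGN-KO (-0.65 to -0.56) and double-KO cells (-0.57 to -0.49), and PPP1R12A in double-KO cells (-0.28 to -0.22), under 14 of 14 alternatives each. The number of the 10 genes called against WT was 2 in CGN-KO (1 to 2 with 1 library left out, 3 with DESeq2), 1 in CGNL1-KO (0 to 2, 2 with DESeq2, and 0 with only the 2 genotypes compared) and 3 in double-KO cells (2 to 3 with 1 library left out, 4 with only the 2 genotypes compared). At a fold of at least 2 edgeR and DESeq2 each called 1 (MYLK) in CGN-KO cells. Between double-KO and CGNL1-KO cells 2 were called (1 to 3 with 1 library left out, 1 with library totals, and 1 with only the 2 genotypes compared), and among the 4 genotypes 2 (1 to 4 with 1 library left out). With a replicate block 2, 1 and 2 genes were called against WT in CGN-KO, CGNL1-KO and double-KO cells, 1, 0 and 3 between CGN-KO and CGNL1-KO, double-KO and CGN-KO, and double-KO and CGNL1-KO cells, and 3 among the genotypes; RHOA in double-KO cells lost its call, and MYLK (among the genotypes) and CIT (double-KO against CGNL1-KO) gained one, and no other call among the 10 genes changed. In the block the unnumbered double-KO library is a level of its own, so double-KO results there rest on double-KO replicates 2 and 3. With this library left out and no block, RHOA in double-KO cells also lost its call (adjusted p = 0.106). CIT (double-KO against CGNL1-KO) and MYLK (among the genotypes) gained none there. These 2 settings were not tested against each other.

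The adjusted p of the ROCK2 to ROCK1 ratio was 0.00253 to 0.0269 with 1 library left out, and that of MYLK to PPP1R12A 0.0338 to 0.225, past the threshold without CGN-KO replicate 1 (0.0409), CGNL1-KO replicate 1 (0.0338) or CGNL1-KO replicate 2 (0.0382). Signs turned in genes that were not called. In CGN-KO cells, with 1 library left out, the log2 difference ran from -0.0259 to 0.0755 for PPP1CB, -0.0797 to 0.0912 for DAPK3, -0.0312 to 0.102 for CIT and -0.0132 to 0.0609 for UNC45A. In CGNL1-KO cells it ran from -0.0340 to 0.104 for DAPK3 and -0.0779 to 0.0237 for UNC45A, and in double-KO cells from -0.0431 to 0.0247 for CDC42BPB (0.0245 with the block).

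With library totals in place of the scaled sizes, the percent of all called genes that were higher went from 66.1% to 52.7% in CGNL1-KO against WT, from 59.6% to 74.5% in CGN-KO against CGNL1-KO, and from 56.3% to 66.9% in double-KO against CGNL1-KO cells, while no median moved by over 0.1. For the other named pathway genes and for CGN and CGNL1 in the lines KO for them, each named call against WT was set against each alternative. The calls of the epithelial markers, of CGNL1 in CGN-KO cells, and of PPP1R12C, PPP1CA and PPP1CC were not. In 593 of these cases the call was kept, and in 65 it was lost, in the same direction. The genes behind the 65 are not named here, and some named calls lie near the threshold, such as SSH1 in CGNL1-KO cells (adjusted p = 0.0461). MYLK is limited by depth (13 to 50 reads). With 1 line per genotype and 3 libraries per line, small differences such as those of RHOA lie near the threshold.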
